A study of Mus musculus with 18 samples.

Results

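The interaction of genotype and lipopolysaccharide (LPS) asks, gene by gene, whether the response of mouse dendritic cells to LPS differed between knockout (KO) and wild-type (WT) cells. It was computed as the KO minus WT difference in LPS libraries, minus the KO minus WT difference in control libraries, on the log2 scale. All 18 RNA sequencing libraries of the series entered it. By title they fell into 4 groups: the WT cells gave 4 control and 5 LPS libraries, and so did the KO cells. All genes with enough counts were kept, which gave 11989 of the 16614 genes in the table, and no measured difference was used to choose them. The contrast was also computed in 17 libraries, without WT LPS replicate 2 (numbered 5 in the series), with 11968 genes.

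The cells were bone marrow-derived dendritic cells, grown from mouse marrow over 7 to 10 days in medium holding 20 ng/ml GM-CSF plus 100 ng/ml Flt3L, and enriched for XCR1, by flow sorting or with magnetic beads. Which of the methods was used for which library is not given in the sources used here, nor is the deleted gene, the way it was deleted, the LPS dose or time, the agent given to controls, or the strain and age of the mice. The labels do not say that replicates came from separate animals or cultures, so p-values measure the spread between these samples, which may be technical. These are cultures in growth factors and not cells taken from a tissue. The libraries are bulk RNA, in which fewer cells of a type and less RNA per cell cannot be told apart.

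XCR1 marks conventional type 1 dendritic cells (cDC1), which take up dead cells and present their antigens on MHC class I. LPS is sensed by TLR4, which starts NF-kB signalling and an interferon response and drives dendritic cells to mature. The series title names STAT5 and STAT3, transcription factors that Janus kinases (JAK) switch on below cytokine receptors. In dendritic cells STAT5 acts below GM-CSF, and STAT3 below Flt3L, IL-6 and IL-10.

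STAT dimers bind palindromes of the form TTCNNNGAA, and interferon-stimulated genes often carry GAAA, any 2 bases and again GAAA in their promoters. The 4 promoters shown belong to called genes of the gene lists described here, and they show these letters in place. They are RefSeq sequences of build GRCm38.p6, from 250 bases before to 50 bases after the start site, 5′ to 3′ on the strand of the gene, with each match in capitals. The deposited counts were made on GRCm39, so these coordinates are not those of the files. Isg15 (chr4:156200769-156201068, minus strand) and Oas3 (chr5:120777610-120777909, minus strand) hold the interferon motif, Isg15 at 3 overlapping places. Marchf1 (chr8:65617790-65618089, plus strand) and Il1r2 (chr1:40085843-40086142, plus strand) hold the STAT motif.
Isg15: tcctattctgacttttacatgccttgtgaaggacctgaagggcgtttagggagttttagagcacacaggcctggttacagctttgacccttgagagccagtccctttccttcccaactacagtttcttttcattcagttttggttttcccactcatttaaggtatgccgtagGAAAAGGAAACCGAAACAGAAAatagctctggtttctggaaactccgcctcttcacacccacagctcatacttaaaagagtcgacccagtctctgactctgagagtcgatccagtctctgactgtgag
Oas3: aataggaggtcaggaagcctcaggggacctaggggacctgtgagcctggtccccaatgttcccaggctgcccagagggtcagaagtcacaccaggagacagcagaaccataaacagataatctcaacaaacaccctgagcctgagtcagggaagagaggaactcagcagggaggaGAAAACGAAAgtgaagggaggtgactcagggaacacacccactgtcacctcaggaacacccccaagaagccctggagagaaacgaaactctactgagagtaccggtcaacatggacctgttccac
Marchf1: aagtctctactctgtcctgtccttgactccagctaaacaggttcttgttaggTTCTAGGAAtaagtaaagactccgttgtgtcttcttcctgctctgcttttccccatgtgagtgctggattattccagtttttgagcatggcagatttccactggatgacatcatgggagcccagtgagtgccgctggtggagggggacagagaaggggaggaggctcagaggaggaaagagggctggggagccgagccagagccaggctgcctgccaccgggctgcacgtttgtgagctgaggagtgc
Il1r2: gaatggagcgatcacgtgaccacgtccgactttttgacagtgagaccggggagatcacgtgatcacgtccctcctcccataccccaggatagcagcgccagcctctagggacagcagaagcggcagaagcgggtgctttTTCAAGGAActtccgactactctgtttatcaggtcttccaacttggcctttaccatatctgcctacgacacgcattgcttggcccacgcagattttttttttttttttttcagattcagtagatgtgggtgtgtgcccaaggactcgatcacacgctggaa
Both strands were searched, and 9641 of the genes tested had such a sequence, of which the first listed was used. TTCNNNGAA stood in 6.9% of all these promoters, in 7.7% of those of the lower genes (21 of 272) and in 9.3% of those of the higher genes (9 of 97). The interferon motif stood in 3.4%, 5.5% and 3.1%. An NF-kB form, GGGA, any base and TTTCC, stood in 0.4%, 0.7% and 0.0%. The motifs can overlap each other. A match is a run of letters and not a measured binding site.

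Library totals lay between 25590104 and 27375189 estimated counts. The cell type label was checked with 20 cDC1 markers of the table, all of which averaged over 1 TPM in both control groups. Their summed level was 7252 to 7780 TPM in WT control, 7134 to 7645 in KO control, 6544 to 7557 in WT LPS and 5782 to 6744 in KO LPS libraries. The sums do not show steady markers. Ifi205 rose from means of 206 and 232 TPM in WT and KO control to 3025 and 2840 TPM with LPS. Btla and Xcr1 also rose in WT, while others fell, such as Irf8 from 1483 and 1473 TPM to 669 and 734 TPM. Xcr1 itself, the sorting marker, lay lower in KO in both treatments, with medians of 176 and 109 CPM (counts scaled to library size) in control and 431 and 289 CPM with LPS. Its interaction was 0.07 ± 0.09 (SE, edgeR adjusted p = 0.703). Monocyte and macrophage markers were also read in every group, with sums of 3971 to 4363 TPM in control and 1765 to 2815 TPM in LPS libraries. Most of this was Lyz2, with means of 3412 and 3228 TPM in WT and KO control and 1855 and 1622 TPM with LPS. Neutrophil markers summed to 551 TPM in WT LPS replicate 5 and 261 TPM in WT control replicate 4, and to 2.72 to 17.4 TPM in the other 16 libraries. Erythroid and platelet markers were highest in the same pair of libraries, at 91.2 and 37.6 TPM. Among the other 16, neutrophil sums were highest in KO control replicate 4 (17.4 TPM) and KO LPS replicate 5 (14.8 TPM). The library numbers of these 2 follow those of that pair. WT LPS replicate 2 stood apart from its group. In it, 24.8% of genes lay more than 0.5 log2 units from the rest of the group, against 2.7% to 11% in the other libraries, and its cDC2 marker sum (348 TPM) was above the 172 to 251 TPM of its group. What part these libraries had in each result was not tested beyond the fits without them given here.

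Of 11989 genes, 458 (3.82%) passed the interaction test at a Benjamini-Hochberg adjusted p under 0.05 (edgeR quasi-likelihood test), and these are named called genes here. The LPS response of KO cells was lower than that of WT cells for 334 genes (2.79%) and higher for 124 (1.03%). An unadjusted p under 0.05 was reached by 2233 genes. The differences were small for most genes, with a median log2 value of -0.56 in the lower and 0.38 in the higher genes. A difference of at least 2-fold was seen in 47 lower and 3 higher genes. The share of lower genes among the calls was 72.9% with the normalization used (TMM), 57.1% with DESeq2's size factors and 81.1% with total counts alone. Over all alternatives it ran from 45.4% with limma on log2(TPM + 1) to 81.6% without WT LPS replicate 5 and WT control replicate 4. It was 48.1% without WT LPS replicate 2 and KO LPS replicate 2. At the edge of the threshold, Ndufb10 (-0.32, adjusted p = 0.04968) and Pstpip2 (0.34, 0.04993) were inside, and B4galt3 (-0.30) and Rps3 (-0.30, 0.05021) outside.

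Without WT LPS replicate 2, the same test called 1501 of 11968 genes (12.5%), 536 higher (4.48%) and 965 lower (8.06%). All 458 genes called in 18 libraries were among them with the same sign, and they made up 30.5% of the longer list. Without WT LPS replicate 5 and WT control replicate 4, the libraries with neutrophil transcripts, 206 genes were called, 38 higher and 168 lower, and 201 of them were among the 458. Of the 458, 127 genes (33 higher and 94 lower) were called under every alternative that tested them. The single libraries whose removal took the count under 305 were WT control replicates 3 (208 calls) and 4 (304), KO control replicate 3 (281) and KO LPS replicates 1 (287), 4 (298) and 5 (279).

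Called genes differed in where the genotype difference lay. For 237 of the 334 lower genes (71.0%), it was larger in LPS than in control libraries, with median KO minus WT values of -0.51 with LPS and 0.07 in control. For the other 97 (29.0%), it was larger in control, with medians of 0.30 in control and -0.09 with LPS. Of the 124 higher genes, 100 (80.6%) differed more with LPS (median 0.32) and 24 more in control (median -0.22). The LPS libraries of the genotypes did not overlap for 179 of the 237 and 85 of the 100 genes that differed more with LPS. These genes were called and sorted by values that hold the LPS difference, which in part fixes such counts. Over all genes, every KO LPS library lay below every WT LPS library for 3.20% and above it for 3.31%. As a background, KO and WT libraries did not overlap for 6.51% of all genes with LPS and for 14.7% in control. These shares cannot be compared, as groups of 5 libraries overlap more readily than groups of 4. By the edgeR test, KO and WT differed for 10.8% of all genes with LPS and for 2.41% in control. LPS itself moved most genes, with 85.5% called in WT and 86.2% in KO. Of the lower genes, 206 (61.7%, against 50.1% of all genes) lay below control after LPS in both genotypes and so fell further in KO. Another 85 (25.4%, against 44.8%) lay above control in both and rose less in KO. The other 43 (12.9%, against 3.1%) lay above control in WT and below it in KO. That form implies a lower interaction, so the selection in part fixes its share. Of the higher genes, 102 (82.3%, against 44.8% of all genes) lay above control in both and rose further in KO.

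**Figure D1:**
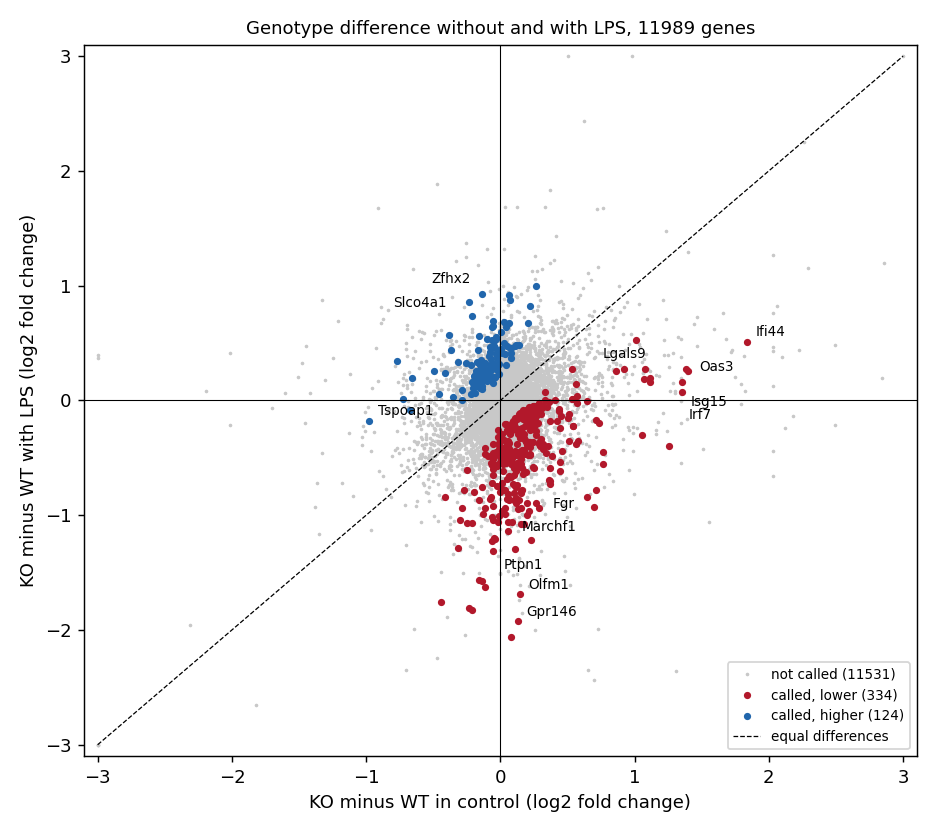
KO minus WT log2 fold change in control (x axis) against the same with LPS (y axis) for each gene tested, with values beyond 3 drawn at the edge. Grey points were not called, red points (334) had a lower and blue points (124) a higher LPS response in KO, and the dashed line marks equal differences. Most red points lie straight below the centre, and the interferon-stimulated genes Isg15, Oas3, Irf7 and Ifi44 lie to the right of it.

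Several lower genes with small p-values rose with LPS in WT and fell, or did not pass the test for LPS, in KO. Ptpn1 (gene ID 19246), a tyrosine phosphatase that removes phosphate from Janus kinases, is one of them. Control libraries gave 68.8, 68.2, 69.4 and 71.8 CPM in WT and 70.3, 67.5, 68.3 and 62.2 CPM in KO. The LPS libraries gave 170, 156, 167, 162 and 169 CPM in WT and 64.2, 77.2, 59.6, 60.9 and 69.8 CPM in KO. The control groups overlapped, while every WT LPS library was above every library of the other groups. LPS raised Ptpn1 2.37-fold in WT, and the KO ratio was 0.989 (adjusted p = 0.819). The interaction was -1.26 ± 0.09 (SE, edgeR adjusted p = 9.07e-08).

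Fgr (14191), a Src family kinase of myeloid cells, had the smallest p-value. WT libraries went from 55.8, 57, 55.2 and 57.8 CPM in control to 84.3, 88.6, 89.4, 88.6 and 88.4 CPM with LPS. KO libraries went from 67.6, 73.4, 70.3 and 63.8 CPM to 45, 45.1, 46, 46.6 and 46.7 CPM. No groups overlapped, and KO lay above WT in control and below it with LPS. The interaction was -1.22 ± 0.06 (adjusted p = 4.30e-10), with a rise of 0.64 ± 0.04 in WT and a fall of 0.58 in KO.

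Flot1 (14251), a scaffold protein of lipid rafts, was read at 21.3, 23.7, 20.8 and 23.9 CPM in WT control and 20.1, 19.6, 20.8 and 21.4 CPM in KO control. With LPS, WT libraries lay at 26.1, 31.5, 25.5, 25.7 and 25 CPM and KO libraries at 8.7, 9.1, 10.6, 8.07 and 8.42 CPM. Only the LPS groups were apart, and KO LPS lay below every other library. The interaction was -1.44 ± 0.11 (adjusted p = 1.86e-07). Zdhhc23 (332175), a palmitoyltransferase, showed the same form with -1.40 ± 0.15 (9.72e-06). Its level was 27.5 to 35.4 CPM in WT LPS and at 9.09 to 14.2 CPM in KO LPS. Htr7 (15566), a serotonin receptor, lay at 44.7 to 54.2 CPM in WT LPS and at 21.4 to 25.6 CPM in KO LPS, with an interaction of -1.26 ± 0.09 (1.00e-07).

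The genes Gpr146, Ptger2, Adora3, Olfm1, Eps8 and Sema6b fell with LPS in both genotypes and fell further in KO. Gpr146 (80290), an orphan G protein-coupled receptor, went from 32.6, 35.8, 31.7 and 35.9 CPM in WT control to 13.1, 8.99, 14.8, 13.5 and 12.3 CPM with LPS. In KO it went from 37.5, 39.3, 37.5 and 34.5 CPM to 3.07, 3.56, 3.95, 2.71 and 3.26 CPM. Control groups overlapped and LPS groups did not, with the KO LPS level at 26.4% of WT LPS. The interaction was -2.05 ± 0.16 (edgeR adjusted p = 1.48e-07). Ptger2, a prostaglandin E receptor, lay at 3.91 to 5.57 CPM in WT LPS and 1.34 to 1.8 CPM in KO LPS (-1.51 ± 0.14), and Adora3, an adenosine receptor, at 3.17 to 5.5 and 1.28 to 2.22 CPM (-1.45 ± 0.21). Olfm1, a secreted olfactomedin, went from medians of 137 and 151 CPM in WT and KO control to 35.3 and 12.3 CPM with LPS (-1.83 ± 0.14). Eps8, which caps and bundles actin, went from 38.7 and 44.1 to 18.4 and 8.47 CPM (-1.23 ± 0.13). For these 5 genes the LPS groups did not overlap and the control groups did, and the adjusted p was at most 0.000413. Sema6b, a transmembrane semaphorin, lay at 3.17 to 10.1 CPM in WT LPS, lowest in replicate 2, and at 1.64 to 2.77 CPM in KO LPS. Its interaction was -1.62 ± 0.30 (adjusted p = 0.00506), and its call ended with limma on log2(TPM + 1) (0.11).

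**Figure D2:**
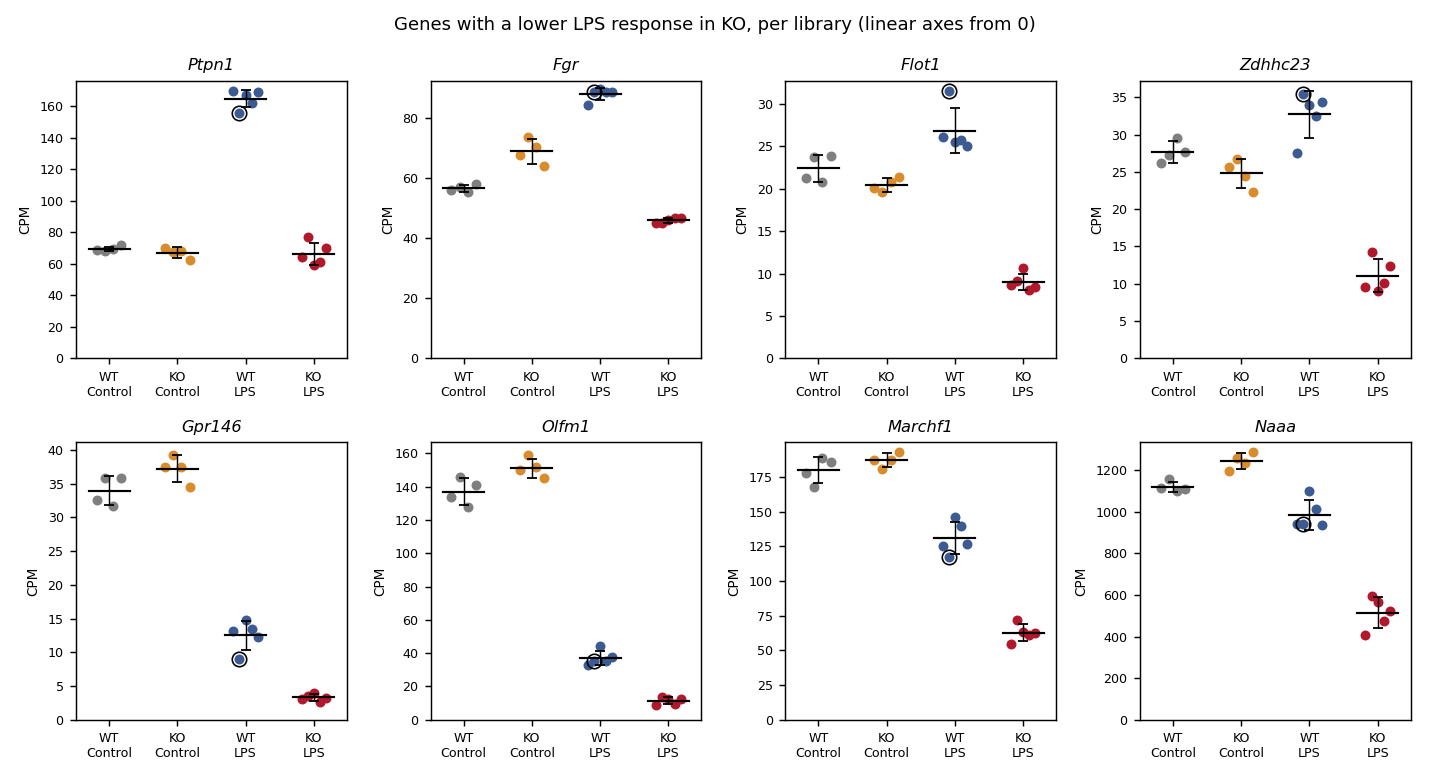
CPM (linear axes from 0) of 8 called genes in every library of the 4 groups, with the mean as a line and the standard deviation as a bar, and WT LPS replicate 2 circled. In each panel the 5 KO LPS libraries lie below the 5 WT LPS libraries, and Ptpn1 shows the WT LPS group alone above the rest.

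Among 20 cDC1 markers, 6 were lower in the interaction and none higher, against 2.79% of all genes lower. Their median was -0.26 (all genes -0.05), with 10 lower and none higher without WT LPS replicate 2, and 5 calls without the libraries with neutrophil transcripts. The 6 were Naaa, Gcsam, Btla, Batf3, Ppt1 and Septin3. Other markers lay above 0 without a call, up to 0.52. At an unadjusted p under 0.05, 10 were lower and 1 higher. Cadm1, for 1, went from means of 67.8 and 71.0 TPM in WT and KO control to 33.9 and 44.9 TPM with LPS. Naaa (67111), an acid amidase of the lysosome that is abundant in cDC1, was read at 1115, 1156, 1100 and 1107 CPM in WT control and 1196, 1256, 1235 and 1289 CPM in KO control. With LPS it stood at 941, 939, 1101, 1013 and 935 CPM in WT and at 409, 596, 568, 477 and 522 CPM in KO. KO lay above WT in every control library and below it in every LPS library. Its interaction was -1.09 ± 0.12 (adjusted p = 9.72e-06), the same in sign and call under all alternatives.

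Batf3 (381319), a transcription factor that cDC1 need to develop, was read at 20, 20.3, 17.9 and 21.8 CPM in WT control and 23.1, 24.1, 25.9 and 26.7 CPM in KO control. After LPS it lay at 13.9, 19.9, 12.8, 12.6 and 15.6 CPM in WT and at 11.8, 11.5, 11.5, 12 and 10.7 CPM in KO. Here too the genotypes changed order between treatments without overlap, although the gap with LPS was 12 to 12.6 CPM at its narrowest. The interaction was -0.70 ± 0.15 (adjusted p = 0.0119). Gcsam, a signalling adaptor known from germinal centre B cells, followed the same order (-1.06 ± 0.15, 0.00042). Btla, an inhibitory receptor, rose with LPS in both genotypes, to 575 to 636 CPM in WT and 374 to 419 CPM in KO (-0.50 ± 0.06, 0.000153). Of the markers of other cells, 1 of 16 monocyte and macrophage markers was called, against 3.82% of all genes. It was Ccr2, a chemokine receptor of monocytes (-0.63 ± 0.16, adjusted p = 0.0377), and the call ended without any 1 of 13 libraries (up to 0.0765). Kit, the only mast cell marker that could be tested, was lower. Of 9 cDC2, 7 plasmacytoid, 3 neutrophil, 5 lymphocyte and 2 erythroid markers that could be tested, edgeR, DESeq2 and limma-voom called none. An unadjusted p under 0.05 was reached by 3 cDC2 and 2 plasmacytoid markers, and 1 cDC2 marker (Itgam) was called without WT LPS replicate 2. Without library numbers 5 and 7, 2 cDC2 markers and 1 plasmacytoid marker were called.

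Of 28 Janus kinases, cytokine receptors and phosphatases, 4 were lower and none higher (median -0.03), against 2.79% of all genes lower. Beside Ptpn1 these were Kit, Flt3 and Jak3. Kit (16590), the stem cell factor receptor, was read at 204, 243, 231 and 245 CPM in WT control and at 285, 294, 288 and 257 CPM in KO control. After LPS the values were 196, 186, 186, 193 and 196 CPM in WT and 164, 177, 157, 164 and 173 CPM in KO. KO was above WT without LPS and below it with LPS, without overlap, and the interaction was -0.48 ± 0.08 (edgeR adjusted p = 0.00184). Flt3, which binds the Flt3L of these cultures, went from medians of 605 and 630 CPM in WT and KO control to 298 and 252 CPM (-0.31 ± 0.08, 0.0284), and the call ended without any 1 of 8 libraries (up to 0.0635). Jak3, the kinase of the common gamma chain, was below WT in KO in both treatments, with -0.43 ± 0.12 (0.0424), and the call ended without any 1 of 12 libraries (up to 0.1). Without WT LPS replicate 2, 4 members were higher and 5 lower.

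The STAT genes of the series title did not pass. Stat3 (20848) was read at 153, 193, 171 and 177 CPM in WT control and 158, 191, 175 and 158 CPM in KO control, which overlapped. LPS libraries held 950, 1149, 910, 945 and 1056 CPM in WT and 837, 768, 719, 785 and 799 CPM in KO, with no overlap. Its interaction was -0.33 ± 0.11 (adjusted p = 0.103), and it passed with total-count scaling (0.0272) and with the length trend removed (0.0463). Stat5b (20851) was read at 72.7 to 93.3 CPM in WT control, 69.4 to 88.7 in KO control, and with LPS at 212, 297, 205, 217 and 253 CPM in WT and 350, 261, 302, 322 and 306 CPM in KO. The groups overlapped through WT LPS replicate 2, the WT library at 297 CPM. The interaction of Stat5b was 0.44 ± 0.15 (0.115), and without that library 0.54 (0.0103). Stat5a (20850) behaved alike, with 0.48 ± 0.25 (0.314), and 0.66 without it (0.0365). In Stat5a, WT LPS replicate 2 stood at 1018 CPM and the remaining 4 of that group at 503 to 720 CPM.

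Of 18 genes commonly linked to STAT3, 2 were lower (median -0.28), against 2.79% of all genes, and 4 without WT LPS replicate 2, the added ones being Bcl3 and Il4ra. Over the 31 alternatives the list held 1 to 6 calls. Il21r (60504), the receptor of IL-21, was induced to 173, 253, 164, 169 and 210 CPM in WT LPS and to 122, 146, 94.7, 111 and 124 CPM in KO LPS, from 9.18 to 16.8 CPM in control libraries. LPS groups did not overlap, and the interaction was -1.07 ± 0.22 (adjusted p = 0.0111). Il1r2, the decoy receptor of IL-1, fell with LPS to 24.8 to 33.2 CPM in WT and 18 to 21.7 CPM in KO, with -0.46 ± 0.11 (0.0231), a call lost when WT control replicate 2 (0.0509) or 3 (0.0666) was left out and with limma on log2(TPM + 1) (0.106). Socs3, the feedback inhibitor that STAT3 induces, did not pass (-0.08 ± 0.31, 0.928). It was read at 0.771 to 2.04 CPM in control, at 216 to 395 CPM in WT LPS and at 166 to 236 CPM in KO LPS. The 18 STAT5- and GM-CSF-linked genes (median -0.03) held no call by edgeR, DESeq2 or limma-voom, against 3.82% of all genes by edgeR. None reached an unadjusted p under 0.05. Without WT LPS replicate 2 there was 1 call, the survival gene Bcl2l1 (0.68). Cish, the feedback inhibitor that STAT5 induces, was read at 0.0833 to 0.138 CPM in WT control and 0.225 to 0.468 CPM in KO control, and at 6.91 to 13.1 and 10.7 to 19.1 CPM with LPS (-0.78 ± 0.60, 0.514).

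Of 27 genes of the type I interferon response, 7 were lower (Irf7, Isg15, Oas3, Oasl2, Ifi44, Xaf1 and Zbp1) and none higher, against 2.79% of all genes lower and 1.03% higher. In these 7 genes KO lay above WT in control, and the genotypes differed less with LPS. Others were not called, among them Trim25 (0.30), Ddx58 (0.17) and Stat2 (0.09), with interactions above 0. The list's median KO minus WT difference was 0.89 in control and 0.20 with LPS, and its median interaction -0.58. Isg15 (100038882), a ubiquitin-like protein induced by interferon, was read at 1.31, 1.59, 1.06 and 2.31 CPM in WT control and at 4.82, 2.73, 4.43 and 4.05 CPM in KO control. In LPS libraries it stood at 972, 1545, 871, 876 and 1012 CPM in WT and at 1179, 1208, 1030, 1098 and 1036 CPM in KO. The control groups did not overlap, and the LPS groups overlapped through WT LPS replicate 2. LPS raised it 671-fold in WT and 277-fold in KO, an interaction of -1.28 ± 0.29 (adjusted p = 0.0198), and the call ended without WT control replicate 3 (0.0678) and with limma-voom (0.0682).

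Oas3 (246727), an enzyme of the antiviral oligoadenylate system, was read at 8.96, 12.8, 11.1 and 12.1 CPM in WT control and 30.5, 31.1, 33.9 and 23.4 CPM in KO control. After LPS it reached 572, 811, 619, 594 and 714 CPM in WT and 835, 792, 704, 778 and 841 CPM in KO. Again only the control groups were apart, and the interaction was -1.15 ± 0.16 (0.000455). Irf7 (54123), the regulator that amplifies interferon production, lay at 8.28 to 12.8 CPM in WT control, highest in replicate 4, and 18.2 to 31.5 CPM in KO control, and at 2371 to 3272 and 2756 to 3216 CPM with LPS (-1.19 ± 0.20, 0.00183). Ifi44 was higher in KO without overlap in both treatments, with 0.333 to 0.413 and 1.12 to 1.58 CPM in control and 63.7 to 97.5 and 101 to 110 CPM with LPS (-1.32 ± 0.26, 0.00659), and its call ended with limma-voom (0.0642) and with limma on log2(TPM + 1) (0.548). So these 4 genes had a smaller fold of induction in KO, while their mean level with LPS was not below that of WT. The call count of the list was 6 without the libraries with neutrophil transcripts, 12 without WT LPS replicate 2 (1 higher, 11 lower) and 2 with limma-voom. How reads shared among the Oas genes and other near-identical copies were counted is not stated, so their values are less certain.

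Lgals9 (16859), the inhibitory lectin galectin-9, had the same form. It was the single call among 18 tolerogenic and inhibitory genes, against 3.82% of all genes called. Levels were 8.93, 8.03, 7.94 and 10.7 CPM in WT control and 20.3, 13.7, 16.9 and 16.6 CPM in KO control. With LPS it stood at 408, 506, 388, 387 and 423 CPM in WT and 539, 539, 475, 501 and 500 CPM in KO. Control groups were apart, and LPS groups overlapped through WT LPS replicate 2. The interaction was -0.65 ± 0.15 (edgeR adjusted p = 0.0185), and the call ended without WT control replicate 3 (0.0576) and with the length trend removed (0.0552).

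**Figure D3:**
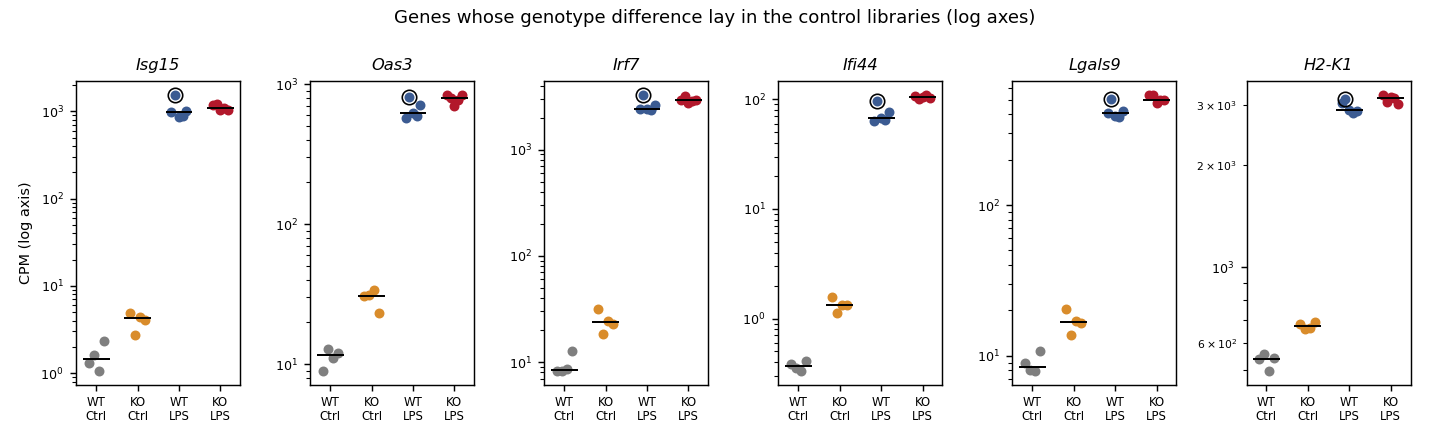
CPM on log axes of 6 called genes in every library, with the group median as a line and WT LPS replicate 2 circled. KO control libraries lie above WT control libraries in each panel, and the LPS groups lie close together, with overlap in all but Ifi44.

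In antigen presentation, 3 of 15 MHC class II genes were lower and none higher (median -0.21), against 2.79% of all genes lower. Marchf1 (72925), a ubiquitin ligase that sends MHC class II from the surface to degradation, was read at 178, 168, 189 and 186 CPM in WT control and 187, 181, 187 and 193 CPM in KO control. After LPS the level was 125, 117, 146, 140 and 127 CPM in WT and 54.7, 71.7, 63.5, 60.8 and 62.8 CPM in KO. Controls overlapped, and all KO LPS libraries lay below all WT LPS libraries. LPS took it to 0.727 of control in WT and to 0.335 in KO, with an interaction of -1.12 ± 0.10 (adjusted p = 1.06e-06). Marchf8, of the same gene family but outside the list and picked after its values were seen, went the other way. It was called higher (0.51) under every alternative that tested it. Ifi30 (65972), the thiol reductase of the class II pathway, rose with LPS in WT to 94.3, 140, 87.2, 87.7 and 104 CPM. It stood at 58.9, 63.2, 54.3, 53 and 55.8 CPM in KO LPS, and at 58.7 to 68.9 CPM in control libraries of both genotypes. WT LPS alone lay above the rest, an interaction of -0.91 ± 0.15 (0.00174). H2-DMa, a chaperone of peptide loading, went from medians of 428 and 512 CPM in WT and KO control to 301 and 284 CPM (-0.40 ± 0.07, 0.00179). Of 18 MHC class I genes, 1 was lower, against 2.79% of all genes. H2-K1 went from 540 and 671 CPM to 2890 and 3143 CPM (medians, -0.26 ± 0.06, 0.0301), a call that ended without any 1 of 8 libraries (up to 0.0857).

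Higher genes were fewer in the main fit, though not under every alternative, and their differences were smaller there. Zfhx2 (239102), a zinc finger homeobox factor, had the smallest p-value of them. Its level was 14.7, 18.3, 16.8 and 16.5 CPM in WT control and 16, 17, 15.8 and 11.4 CPM in KO control. LPS libraries gave 29.5, 31.1, 29.4, 28.7 and 31.6 CPM in WT and 69.3, 49.8, 51, 57.7 and 58.7 CPM in KO. Control groups overlapped and LPS groups did not, with an induction of 1.81-fold in WT and 3.81-fold in KO. The interaction was 1.07 ± 0.15 (edgeR adjusted p = 0.000332).

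Cd180 (17079), a receptor related to TLR4 that modulates LPS responses, did not pass the test for LPS in WT (adjusted p = 0.416). Libraries held 191, 176, 195 and 184 CPM in WT control, 184, 178, 184 and 174 CPM in KO control, and 177, 200, 202, 191 and 190 CPM in WT LPS. In KO LPS it rose to 252, 275, 275, 261 and 268 CPM. The KO LPS libraries were above all others, and the interaction was 0.52 ± 0.07 (0.000153). Slco4a1 (108115), an organic anion transporter, was read at 9.99, 4.19, 9, 9 and 8.84 CPM in WT LPS and 15.5, 11.8, 15.5, 15.8 and 16.3 CPM in KO LPS, from 6.31 to 9.61 CPM in controls. The interaction was 1.09 ± 0.23 (0.0128), and 0.93 without WT LPS replicate 2, the lowest WT library (0.000584).

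Regulators of inflammatory RNA and signalling were among both the lower and the higher genes. Outside the lists, Tnip2 (-0.43) and Zfp36l2 (-0.59), picked after their values were seen, were called lower under every alternative that tested them. Those described next were higher. Zc3h12c (244871), an endoribonuclease of the regnase family, went from 14.8 to 19.4 CPM in controls to 236, 271, 228, 256 and 271 CPM in WT LPS and 408, 354, 343, 379 and 382 CPM in KO LPS. LPS groups were apart, with an interaction of 0.72 ± 0.11 (0.000957). Tnip1 (57783), an inhibitor of NF-kB signalling, went from 20.4 to 24 CPM in controls to 275, 273, 274, 277 and 287 CPM in WT LPS and 370, 337, 382, 371 and 372 CPM in KO LPS. It was the only call among 23 NF-kB and LPS feedback genes (0.37 ± 0.08, 0.00933), against 3.82% of all genes called. Without WT LPS replicate 2 there were 4 higher, the added ones being Nfkb1, Rel and Map3k8, and 1 lower (Bcl3). Nfatc2ip, a partner of the T cell factor NFATC2, lay at 27.2 to 36.2 CPM in WT LPS and 40.9 to 64.3 CPM in KO LPS (0.95 ± 0.15, 0.00129). Mtdh, metadherin, which binds NF-kB, lay at 215 to 273 and 315 to 371 CPM (0.58 ± 0.09, 0.000906). For Zc3h12c, Tnip1, Nfatc2ip and Mtdh the control groups overlapped and the LPS groups did not.

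Every KO control library lay below every WT control library in 34 of the 124 higher genes (27.4%), against 5.45% of all genes. Tspoap1, Fndc5 and Nes were among them. A low KO control level raises the interaction, so the choice of called genes in part fixes this share. Tspoap1, a binding partner of a mitochondrial translocator protein, was read at 16.6 to 22.5 CPM in WT control and 9.16 to 11.2 CPM in KO control, while LPS groups overlapped at 47.6 to 63.1 and 43.8 to 55.6 CPM (0.80 ± 0.13, adjusted p = 0.00179). Fndc5, the precursor of irisin, lay at 8.29 to 10.5 and 5.14 to 6.31 CPM in control and overlapped with LPS (0.74 ± 0.13, 0.00269). Nes, the intermediate filament nestin, lay at 0.681 to 1.18 and 0.365 to 0.62 CPM in control and at 9.6 to 10.1 and 9.78 to 14.1 CPM with LPS (1.12 ± 0.23, 0.011). Each of these calls was the same under all 31 alternatives. Of the other higher genes named by the rule, Sh3pxd2a (0.75 ± 0.17), a podosome scaffold, fell less in KO and lost its call without the libraries with neutrophil transcripts (0.0533). Calls of Myb (0.80 ± 0.22), Niban3 (0.85 ± 0.22), Psrc1 (0.75 ± 0.19), Matn2 (0.85 ± 0.22) and Syne2 (0.81 ± 0.22) ended without any 1 of 10 to 15 libraries, with adjusted p up to 0.108.

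**Figure D4:**
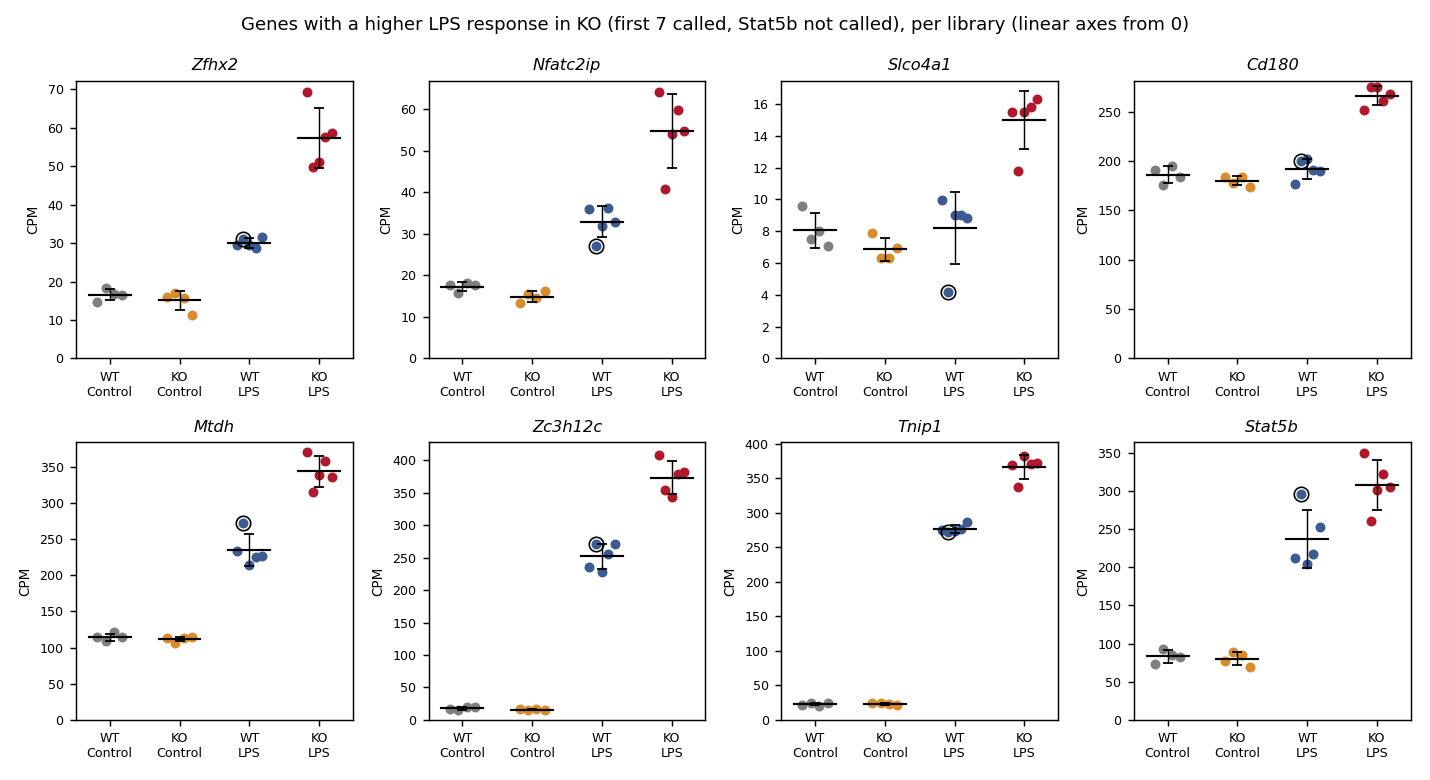
CPM (linear axes from 0) of 7 called genes and of Stat5b, which was not called, in every library, with the mean as a line, the standard deviation as a bar and WT LPS replicate 2 circled. KO LPS libraries lie above WT LPS libraries in the 7 called genes, and the circled library lies inside the KO range only for Stat5b.

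Cytokines, chemokines and co-stimulatory genes, the classical outputs of LPS, held no call in 18 libraries, against 3.82% of all genes called. In lists of 15, 16 and 18 genes, no call is near that share. The median interaction was 0.24 over 15 cytokines, -0.08 over 16 chemokines and -0.02 over 18 co-stimulation and maturation genes. The cytokine median is the value of Il10. Il12a and Ifnb1 averaged 0 CPM in both control groups, and Il6, Il23a and Il27 at most 0.104 CPM. For such genes the control ratio could not be measured, so a missing call does not show equal responses. At an unadjusted p under 0.05 (edgeR), 2 cytokines, 1 chemokine and 2 co-stimulation genes were higher and none lower. DESeq2 called 0, 1 and 2 of them, limma-voom 0, 1 and 0, and limma on log2(TPM + 1) 2, 1 and 2. Il12b (16160), a subunit that IL-12 has in common with IL-23, was read at 12.6, 13.3, 13.4 and 18.3 CPM in WT control and 16, 17.5, 18.6 and 17.4 CPM in KO control. LPS brought it to 1256, 1857, 621, 958 and 1257 CPM in WT and to 3420, 2155, 1986, 2868 and 2556 CPM in KO, without overlap. LPS raised it 82.7-fold in WT and 149-fold in KO, an interaction of 0.85 ± 0.32 (edgeR adjusted p = 0.152). Without WT LPS replicate 2 the interaction of Il12b was 1.07 (0.0135), and those of Tnf, Cxcl16, Cd80 and Icosl, at 0.64, 0.36, 0.64 and 0.44, also passed. Ccl17 and Ccl22, chemokines that attract regulatory T cells, had interactions of -0.10 ± 0.51 (0.943) and -0.09 ± 0.27 (0.897). Their medians in KO and WT were 1.52 and 0.54 CPM in control and 191 and 78.9 CPM with LPS for Ccl17. For Ccl22 they were 121 and 60.5 CPM in control and 12802 and 7422 CPM with LPS. Il10, an anti-inflammatory cytokine, was listed at 0 in 3 of 4 control libraries of each genotype and reached 0.765 to 2.09 CPM in WT LPS and 0.84 to 2.3 CPM in KO LPS, too low for a ratio between control groups.

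The remaining lists held few calls, and 3.82% of all genes were called. Of 20 MAP kinase phosphatases and immediate early genes, Myc was higher (0.37 ± 0.09, adjusted p = 0.0298) and Ier3, an early response gene tied to cell survival, was lower (-0.97 ± 0.21, 0.0157). Myc fell with LPS from 80 to 83.5 CPM in WT and 85.5 to 91.3 CPM in KO control to 35.9 to 42.5 and 48.3 to 61.3 CPM, and its call ended without any 1 of 8 libraries (up to 0.0637). Ier3 was induced to 95.7 to 145 CPM in WT and 54.4 to 66.3 CPM in KO, and its call ended without WT control replicate 3 (0.0507). Of 22 cell cycle genes, Cenpe, a kinetochore motor, was higher (0.59 ± 0.15, 0.0328), a call that ended without any 1 of 8 libraries (up to 0.09). Without WT LPS replicate 2, 5 others were lower: Mcm2, Mcm3, Mcm5 and Mcm6, subunits of the replicative helicase, and Rrm2, which makes deoxynucleotides. Of 18 genes of cholesterol synthesis and handling (median 0.23), Hmgcs1, an early enzyme of the pathway, was higher (0.38 ± 0.10, 0.0388), a call that ended without any 1 of 9 libraries (up to 0.0961). At an unadjusted p under 0.05, 6 of these genes were higher and none lower. DESeq2 called 5 and limma-voom 2. Without WT LPS replicate 2, 4 were higher and 1 lower, and the alternatives gave 0 to 7 calls. Of 20 lysosomal genes, Naaa alone was lower. The 21 glycolysis and HIF-1 genes (median -0.23) and the 20 respiratory chain genes (median -0.10) held no call by edgeR or DESeq2, and 1 lower gene each without WT LPS replicate 2 (Eno1 and Ndufb8). Over the 31 alternatives they held 0 to 8 and 0 to 1 calls. At an unadjusted p under 0.05, 7 glycolysis and 5 respiratory chain genes were lower and none higher, and limma-voom called 1 and 0.

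**Figure D5:**
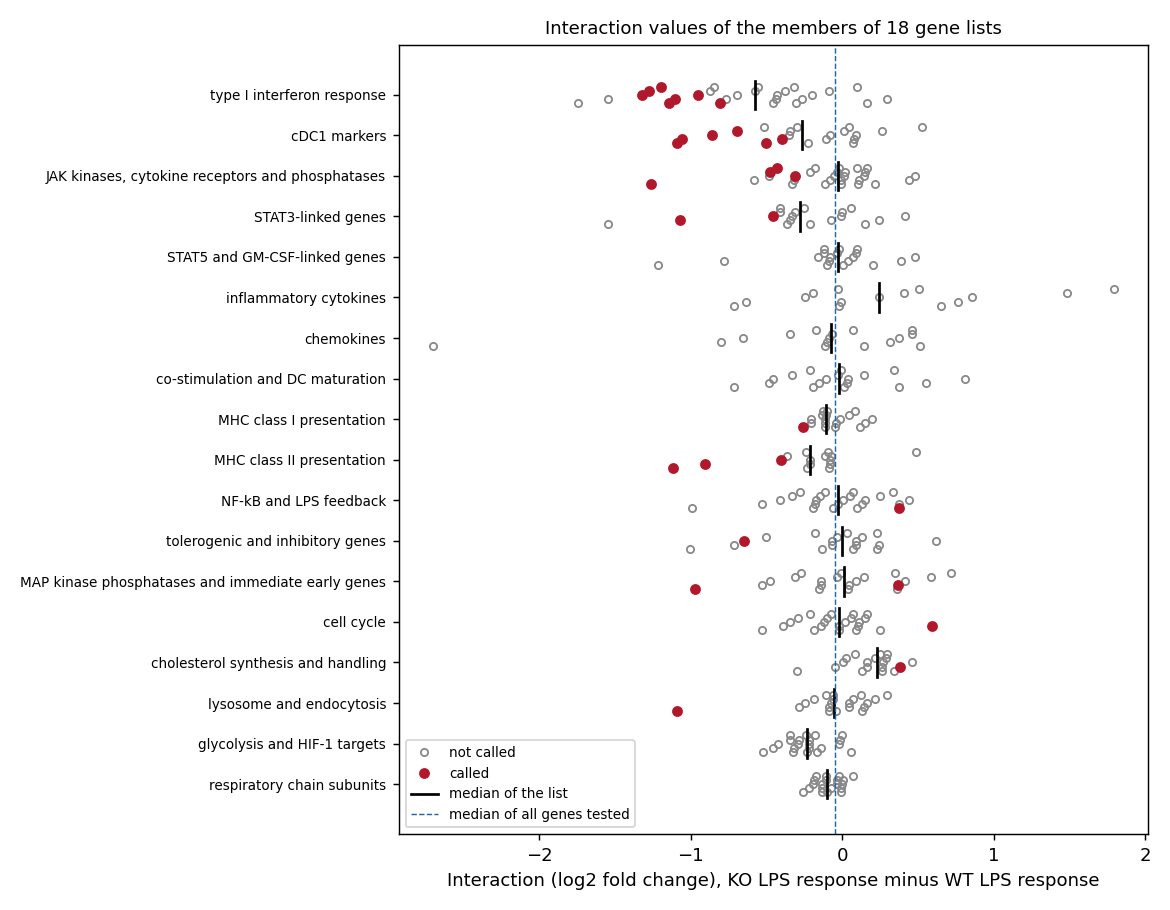
Interaction log2 fold change (x axis) of every tested member of 18 gene lists (rows), with called members filled, the median of each list as a black line and the median of all genes tested as a dashed line. The interferon list and the cDC1 markers hold 7 and 6 called members, all below 0, and the cytokine list holds none.

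In 19 called genes, LPS moved the genotypes in opposite directions, with both responses past the test. In 14 of them LPS raised WT and lowered KO, among them Fgr, Flot1, Htr7 and Zdhhc23. Sting1, the adaptor of the cytosolic DNA sensor, changed by 0.24 in WT and -0.56 in KO (interaction -0.80, adjusted p = 0.000125). Ahr, the aryl hydrocarbon receptor, changed by 0.43 and -0.40 (interaction -0.82, 0.000215). Cyth4, an exchange factor of ARF proteins, changed by 0.19 and -0.66 (-0.85, 1.06e-06). The other 5 went down in WT and up in KO. Slc9a5, a sodium and hydrogen exchanger, was read at 5.31, 5.88, 5.61 and 5.26 CPM in WT control and 4.51, 3.96, 4.32 and 4.13 CPM in KO control. It was read at 3.36, 3.01, 4.82, 4.59 and 4.28 CPM in WT LPS and 6.66, 4.06, 7.26, 7.12 and 4.71 CPM in KO LPS (0.95 ± 0.22, 0.0196), with overlap with LPS. Pdcd4, an inhibitor of translation, changed by -0.32 and 0.42 (0.73, 0.0373). Sting1, Ahr, Cyth4 and Pdcd4 were chosen after their values were seen.

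The interaction moved with transcript length. Length was inferred for 11674 genes from the ratio of counts to FPKM. Across these genes, which are not independent, Spearman's rho of the interaction with length was 0.383, that of the KO minus WT difference -0.37 in control and 0.192 with LPS. Of the genes in the shortest of 3 length classes of equal size 8 were higher and 184 lower, in the middle class 31 and 89, and in the longest class 85 and 61. With the length trend removed from the counts these became 16 and 73, 29 and 88, and 42 and 106. Cytosolic ribosomal protein genes are short (median 420 bases, against 2636 over all genes). Of 80 picked by symbol alone, after their values were seen, 26 (32.5%) were lower and none higher. Such symbols also take in genes that are not ribosomal proteins themselves, such as Rps19bp1 and Rpl7l1, which were not called. Lower genes made up 2.79% of all genes and 4.73% of the shortest class. The median KO minus WT difference of the 80 genes picked by symbol was 0.23 in control and -0.06 with LPS. Whether length, RNA quality or the cells gave this pattern was not tested.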

How the data were processed

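RNA of 18 samples of mouse dendritic cells was sequenced as pairs of 150 bases, per the labels' protocols. HISAT, Bowtie2 and GRCm39 are named in the submitters' processing notes, without versions or roles, while the sources used here do not name the annotation or the counting program. The authors deposited estimated counts per gene without normalization, and 6.37% of them are not whole (tolerance 0.001). The TPM values, as deposited, are scaled by transcript length and library. The FPKM values, as deposited, hold counts per length and depth, and served here only to infer lengths.

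Estimated counts were rounded, genes filtered (filterByExpr, minimum count 10, minimum total 15), scaled by TMM and fitted with edgeR 4.0.16 (R 4.3.3, quasi-likelihood) with a mean for each of the 4 groups. All groups shared 1 estimate of the spread per gene, with a biological coefficient of variation of 0.0934. CPM is the count divided by the TMM-scaled library size. Adjusted p-values are Benjamini-Hochberg over all genes tested, called under 0.05. The filter left out 4625 genes, the highest with a group mean of 1.88 CPM, and kept genes from 0.272 CPM. The code was tested on simulated counts. No pair of replicates agreed within sampling noise (chi-square per degree of freedom at least 2.73 over 32 pairs).

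The gene lists, the members and the rule for named genes were chosen with earlier results of these data known. The rule named 10 genes of the title's theme whatever their values, the 12 highest and 12 lowest called differences above 1 CPM in every group and 5 CPM in the highest, the 5 smallest p-values in each direction, up to 4 called members of each list, and up to 4 called genes that were under 1 CPM in control, and 61 genes resulted. Alternatives used DESeq2 1.42.0, limma 3.58.1, other scalings and filters, and fewer libraries. DESeq2 was run on the same rounded counts. limma on TPM used a pseudocount of 1. Promoters came from RefSeq, build GRCm38.p6.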

Additional observations from a re-analysis of the deposited data

Results flagged for a closer look

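The LPS response differed between the genotypes by the test of the difference itself for 458 genes, 124 higher and 334 lower in KO. Among the genes named by rule, LPS moved the genotypes in opposite directions, both past the test, for Fgr (-1.22), Htr7 (-1.26), Flot1 (-1.44), Zdhhc23 (-1.40) and Slc9a5 (0.95), all as interaction log2 fold changes.

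Single libraries stood far from the rest of their group in 15 of 244 combinations of gene and group, where chance gives about 1 in 20 (12.2). WT LPS replicate 2 accounted for 4 of them, with Slco4a1 at 4.19 CPM (nearest library 8.84), Myc at 35.9 CPM (41), Flot1 at 31.5 CPM (26.1) and Isg15 at 1545 CPM (1012). WT control replicate 4 accounted for 3, with Il12b at 18.3 CPM (13.4), Il21r at 15.6 CPM (10.2) and Irf7 at 12.8 CPM (8.64), and it is 1 of the libraries with neutrophil transcripts. In KO LPS replicate 2, Slco4a1 was at 11.8 CPM (15.5) and Tnip1 at 337 CPM (370). The others were Adora3 at 5.5 CPM in WT LPS replicate 3 (3.51), Fgr at 84.3 CPM in WT LPS replicate 1 (88.4), Mtdh at 107 CPM in KO control replicate 2 (113) and Jak3 at 21.7 CPM in KO control replicate 4 (26.8). Il10 was at 0.0272 CPM in WT control replicate 1 and at 0.0282 CPM in KO control replicate 1, and listed at 0 in the other control libraries.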

How the results depend on the processing

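Of 51 named calls, 32 kept sign and call under all 31 alternatives, 19 lost the call in at least 1 and none changed sign. Against 458 calls (124 higher, 334 lower), the count was 813 (382 and 431) with DESeq2's Wald test and 372 (203 and 169) with limma on log2(TPM + 1). It was 1591 (825 and 766) without library numbers 5 and 7, WT LPS replicate 2 and KO LPS replicate 2. It was 206 (38 and 168) without the libraries with neutrophil transcripts, an alternative chosen after seeing the data. Leaving out 1 library gave 208 to 1501 calls (44 to 536 higher, 164 to 965 lower), lowest without WT control replicate 3 and highest without WT LPS replicate 2. Of genes not called, Ccl17 turned to 0.064 with limma on log2(TPM + 1), 0.13 with the length trend removed and 0.19 without libraries 5 and 7. Without those libraries Ccl22 turned to 0.17 and Socs3 to 0.10, and Cish turned to 0.36 with limma on log2(TPM + 1). Leaving out 1 library gave ranges of -0.34 to 0.11 for Ccl17, -0.24 to 0.041 for Ccl22, -1.07 to 1.58 for Il10 and -0.23 to 0.055 for Socs3. Fewer libraries change the spread estimate, and otherwise the cause was not tested. Labels give groups the same replicate numbers, but deviations of same-numbered samples correlated above 0.1 in 6 of 25 pairs (-0.221 to 0.353), so the main fit did not pair them. The fit with the replicate block called 390 genes (96 and 294). Runs of consecutive library numbers held 12 of 25 pairs above 0.1, among them the WT LPS and WT control pairs (0.14 to 0.273). What these runs share is not stated, and the 458 calls do not account for it. A replicate block by the runs called 882 (250 and 632). Under that block the calls were 8 instead of 0 in the glycolysis and HIF-1 list, 6 instead of 2 in the STAT3-linked list, 6 instead of 1 in the NF-kB and LPS feedback list, 4 instead of 1 in cholesterol synthesis and handling, 3 instead of 1 each in the lysosomal and the monocyte and macrophage lists, 2 instead of 1 in the tolerogenic and inhibitory list, 2 instead of 0 each among cDC2 markers and co-stimulation genes, and 1 instead of 0 among chemokines. Total-count scaling moved the median interaction of all genes by -0.04. Depth limits genes near or under 1 CPM, such as Nes, Cish and Il10 in control libraries.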
